A study of Mus musculus with 2 samples.

Results

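The miR-34 family is a small group of microRNAs (miRNAs, short RNAs that hold back the translation and stability of messenger RNAs) best known as direct transcriptional targets of the tumour suppressor p53. It was followed here in exosomes, the vesicles that cells release into their medium, as the 5 mature forms mmu-miR-34a-5p, mmu-miR-34b-5p, mmu-miR-34b-3p, mmu-miR-34c-5p and mmu-miR-34c-3p (the species prefix is left out below). They were taken by name from the non-control spots of an Agilent mouse miRNA array and are 5 of its 1881 miRNAs, read by 10 of its 4415 probes and 150 of its 56430 miRNA spots. Their source was cultured mesenchymal stem cells of mouse bone marrow (BMSCs), bought by the study as cells of C57BL/6 mice and grown with serum cleared of exosomes. One group was kept in normoxia and the other at 0.2% oxygen, and medium was collected after 72 h in both. Each condition is 1 exosome preparation on 1 array of a shared slide, so there is no biological replicate and no test between conditions, and condition and slide position cannot be told apart. The array carries no messenger RNA, so neither p53 itself nor markers of the labelled cell type could be looked at.

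A miRNA hairpin is cut into a 5p and a 3p arm, and the strand that is loaded into an Argonaute protein recognises its targets mainly through the seed, bases 2 to 8 from its 5′ end. The 5p arms of the miR-34 family are the strands usually loaded. They are known to lower cell cycle and survival genes such as Cdk4, Cdk6, Ccnd1, Met and Bcl2, and so to favour arrest, senescence and cell death after p53 is activated. Mir34a stands alone in the genome, whereas Mir34b and Mir34c are made from a shared primary transcript.

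The sequences are shown because the listed members with a mature sequence fall into 2 seeds, 1 for each arm, and the values below are ordered by them. Mature sequences of 4 of the 5 members were found by name in the RefSeq table (build GRCm38.p6). miR-34c-5p has none there, is named only and is placed below with the other 5p arms. Capitals mark the seed.
miR-34a-5p: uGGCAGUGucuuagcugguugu
miR-34b-5p: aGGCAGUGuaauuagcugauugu
miR-34b-3p: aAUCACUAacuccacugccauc
miR-34c-3p: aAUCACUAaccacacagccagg
miR-34a-5p lies on the plus strand at chr4:150068473-150068494, and its hairpin overlaps no other annotated gene. Both arms of Mir34b are on the minus strand, miR-34b-5p at chr9:51103610-51103632 and miR-34b-3p at chr9:51103574-51103595. miR-34c-3p is at chr9:51103044-51103065, also on the minus strand. The Mir34b and Mir34c hairpins are 451 bases apart. Both overlap the coordinates of the annotated protein-coding genes Btg4 and Hoatz, whose strand was not compared. miR-34a-5p and miR-34b-5p share the seed GGCAGUG. Compared position by position from the 5′ end without gaps, 11 of 22 bases are the same. They are 22 and 23 bases long, and the stretch uuagcug, present in both, falls out of register. That count thus understates their likeness, and no gapped alignment was made. miR-34b-3p and miR-34c-3p share the seed AUCACUA and 17 of 22 bases, the first 10 in a row. Their 5 differences, with the base of miR-34b-3p first and positions counted from 1 at the 5′ end, are U11C, C12A, U16A, U21G and C22G. How far a probe for 1 member also binds another was not tested.

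The Mir34c hairpin is printed whole because it is the only hairpin of the family with both arms measured on both arrays, and capitals mark its 3p arm.
Mir34c: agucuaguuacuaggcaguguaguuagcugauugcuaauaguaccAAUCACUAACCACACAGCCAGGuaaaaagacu

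Values are the scanner software's processed signal, a linear intensity from which the background has been subtracted, averaged over the replicate spots of a probe. The SD and SE (standard error) are over spots inside 1 array and cover printing, hybridisation and scanning only. A probe counts as detected when more than 50% of its spots are well above background, and a miRNA needs 1 such probe. Spots were noisier on the hypoxia array, with a median coefficient of variation between spots, as the software wrote it, of 15.8% against 9.68% in normoxia. Probes differ in how brightly they bind, so signals are compared between the arrays and not between miRNAs.

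Members of both seeds were detected in both kinds of exosome. In normoxia 3 of the 5 members were detected, namely miR-34b-5p, miR-34c-5p and miR-34c-3p, where 12.0% of all miRNAs on the array were. In hypoxia 4 members were detected, these 3 and miR-34a-5p, where 10.6% of all miRNAs were. miR-34b-3p was detected on neither array. On the software's own call 4 members were detected in normoxia and 5 in hypoxia, and with every spot required to be well above background the same 3 members were left on each array.

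**Figure D1:**
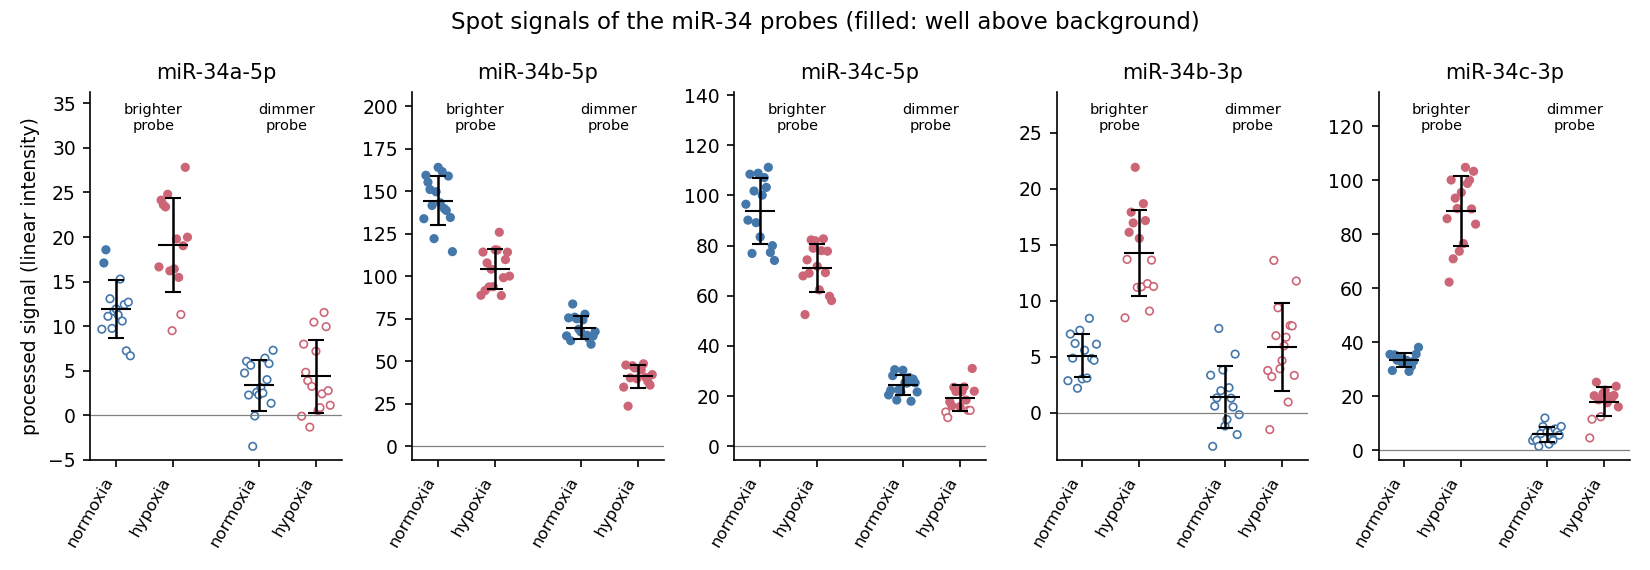
Processed signal (linear intensity, vertical axis) of every spot without an outlier flag for the 2 probes of each miR-34 member, on the normoxia array (blue) and the hypoxia array (red). Filled points are spots well above background, and black bars give the mean and SD over spots. The brighter probes of the 3p arms sit higher in hypoxia with no overlap among these unflagged spots. Before any scaling the 5p arms miR-34b-5p and miR-34c-5p, detected on both arrays, sit lower in hypoxia. The brighter probe of the 5p arm miR-34a-5p sits higher there, with overlapping spots.

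Among the seed GGCAGUG members, miR-34a-5p, the member most studied as a p53 effector, was at the edge of detection. Its brighter probe read 11.9 ± 3.24 (SD, n = 15 spots) in normoxia, with 2 spots well above background. In hypoxia its 14 usable spots averaged 19.1 ± 5.27 (SD), with 12 of them well above background. The spots of the arrays overlapped, running from 6.68 to 18.6 in normoxia and from 9.49 to 27.8 in hypoxia. Its dimmer probe was detected on neither array, at 3.37 ± 2.83 and 4.36 ± 4.13 (SD, n = 15 spots each). Set against the lowest detected signal of the normoxia array after quantile normalization, miR-34a-5p was at least 2.18-fold higher in hypoxia, or 1.12 on the log2 scale. The bound moved with the scaling. It was 0.40 on the log2 scale without normalization and 0.88 with the labelling spike-ins, and a bound below 1 leaves it unknown whether the difference reached 2-fold.

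miR-34b-5p, which p53 also induces, differed by less than 2-fold. Over 15 spots on each array its brighter probe averaged 145 ± 14.6 (SD) in normoxia against 104 ± 11.5 in hypoxia. For its dimmer probe the normoxia mean was 69.8 ± 6.82 (SD, n = 15 spots) and the hypoxia mean 41.1 ± 6.71 (SD, n = 14 spots). Both signals were thus lower on the hypoxia array, and for the dimmer probe the spots did not overlap. Quantile normalization, which gives both arrays the same distribution of signals, took most of that away. The normalized log2 difference, hypoxia minus normoxia, was −0.15 ± 0.046 (SE over spots), with 0.025 ± 0.056 for the brighter probe and −0.32 ± 0.073 for the dimmer one. The value of the brighter probe thus lay within its SE of 0, and only the dimmer one stayed lower in hypoxia.

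miR-34c-5p, made from the same primary transcript, was also lower in hypoxia before scaling. The signal of its brighter probe went from 93.9 ± 13.1 in normoxia to 71.1 ± 9.55 in hypoxia (SD over 15 spots each). That of the dimmer probe went from 24.3 ± 3.95 to 19.2 ± 5.15, again over 15 spots each, and 11 of its 15 spots were well above background in hypoxia against 15 in normoxia. The spots of the arrays overlapped on both probes. After normalization the log2 difference was 0.28 ± 0.069 (SE over spots), with 0.21 ± 0.072 and 0.34 ± 0.12 for the probes, so the sign turned.

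The direction of miR-34b-5p and miR-34c-5p therefore depended on the scaling. Over 6 scalings of the arrays miR-34b-5p lay between −0.62 and 0.31 and miR-34c-5p between −0.37 and 0.56, on either side of 0. The median log2 difference of the 180 miRNAs detected on both arrays moved with them, from −0.27 without normalization to 0.66 when all probes set a common 75th percentile. Relative to that median, miR-34b-5p was at −0.32 with quantile normalization and at −0.35 with any single factor per array. The other 5 scalings are such factors, so they give 1 value by construction. miR-34c-5p was at 0.11 with quantile normalization and at −0.10 with a single factor. Both stayed inside the 2-fold threshold that the study uses under the 6 scalings.

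Of the seed AUCACUA members, miR-34c-3p, the arm of Mir34c that is usually the minor one, had the largest measured difference of the family. In normoxia its brighter probe averaged 33.3 ± 2.51 over 13 spots (SD), and in hypoxia 88.5 ± 12.9 over 15 spots. All these spots were well above background, and the arrays did not overlap, with spots from 29.2 to 38.1 in normoxia and from 62.2 to 105 in hypoxia. Quantile-normalized, the probe was 4.03-fold higher in hypoxia, a log2 difference of 2.01 ± 0.062 (SE over spots). The value rests on that probe, since the other was detected in hypoxia only. This dimmer probe averaged 5.87 ± 2.79 in normoxia (SD over 15 spots), with no spot well above background, against 18.0 ± 5.45 in hypoxia (SD over 14 spots), with 11. Taken alone it gave a bound of at least 1.98-fold higher, the same direction as the brighter probe.

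The difference of miR-34c-3p kept its direction under the 6 scalings, from 1.41 without normalization to 2.34 when all probes set a common 75th percentile, and stayed beyond 2-fold in each. Relative to the median of all 180 miRNAs it was 1.84 with quantile normalization and 1.68 with a single factor. With median pixel signals corrected by normexp it was 0.90, which is less than 2-fold. With quantile normalization it stood 7th from the highest of the 180 differences, where miR-34c-5p stood 80th and miR-34b-5p 116th. Of these 180 miRNAs, 18.3% (33) were at least 2-fold higher in hypoxia and 10.0% (18) at least 2-fold lower. That split was 20 higher and 36 lower without normalization, and 58 and 10 when all probes set a common 75th percentile. The family had 1 of its 3 measured members in the first class and 0 in the second. With bounds included the family had 2 of 4, against 18.2% of the 231 miRNAs with a value, and the second of these is the miR-34a-5p bound given above. A miRNA detected in hypoxia only can have a positive value or none, so the sign of that bound was fixed by the detection rule. Those detected on 1 array only with a bound below 1-fold have no value and are left out of the 231. The median difference of the 3 measured members was 0.28, against 0.17 over all 180.

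miR-34b-3p was not detected by the rule used here, so no difference is given for it. In normoxia the 13 usable spots of its brighter probe averaged 5.09 ± 1.93 (SD), with no spot well above background. In hypoxia it was at 14.3 ± 3.86 (SD, n = 15 spots), and 7 of 15 spots, or 46.7%, were well above background, just under the majority that detection needs. Among spots without an outlier flag the arrays did not overlap, with a highest value of 8.43 in normoxia and a lowest of 8.48 in hypoxia. The 2 dropped normoxia spots, at 11.5 and 8.97, lay inside the hypoxia range. Its dimmer probe, at 1.39 ± 2.78 and 5.88 ± 3.95 (SD, n = 15 spots each), had no spot well above background on either array. The lowest signal of any detected probe was 14.5 in normoxia and 13.5 in hypoxia. When only the even spots were used it passed in hypoxia, with a bound of 0.68 on the log2 scale. The software's summed signal also called it detected in hypoxia, with a bound of 2.98, above the 2.23 that miR-34c-3p had there. Whether miR-34b-3p has a difference, and how large, thus depended on how spots were summarised and called.

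**Figure D2:**
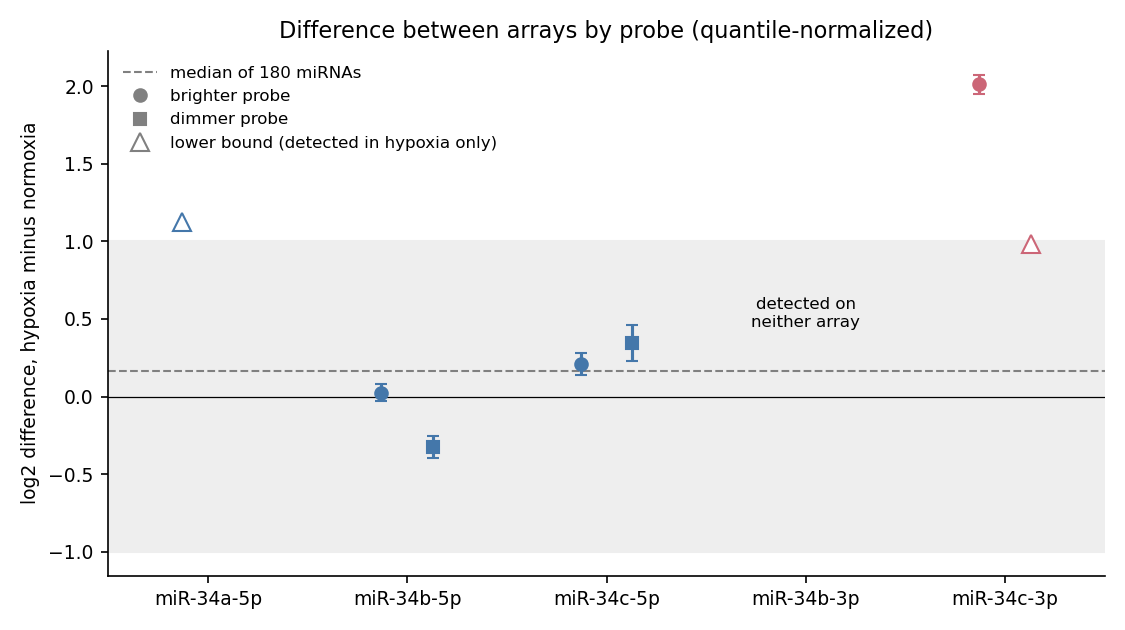
Log2 difference between the arrays, hypoxia minus normoxia, after quantile normalization, for the probes of each miR-34 member. Circles and squares are the brighter and the dimmer probe with the SE over spots, open triangles are lower bounds for probes detected in hypoxia only, and the grey band spans less than 2-fold. miR-34c-3p at 2.01 stands above the band, whereas miR-34b-5p and miR-34c-5p lie inside it near the median of the 180 miRNAs (0.17, dashed).

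The arms of Mir34c can be compared without choosing a factor between the arrays, since such a factor moves both alike. This comparison was added after the values had been seen. The log2 difference of the 3p arm exceeded that of the 5p arm by 1.74 ± 0.093 (SE over spots) with quantile normalization. It was 1.78 with any single factor per array, and 1.69 and 1.80 in the odd and the even spots. The gap was 1.22 when dim probes were not filtered, 0.80 with normexp on median pixel signals and 2.31 with the software's summed signal.

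A gap of this direction was common among the hairpins that could be compared. Of 10 hairpins with both arms detected on both arrays, 8 had a higher difference for the 3p arm, and the median gap was 0.88. That of miR-34c was the highest of the 10. Those of miR-125a (1.26), miR-324 (1.23), let-7d (1.07) and miR-652 (1.02) followed, and the lowest was that of miR-99b at −0.93. In each of the 5 hairpins with a gap of at least 1, an arm that was dim in normoxia rests on 1 probe. It was the 5p arm for miR-324 and the 3p arm for the others. The normalized log2 signals of these arms in normoxia ran from 3.94 (miR-652-3p) to 4.72 (miR-34c-3p). How far dimness shapes the gaps was not tested. Over single miRNAs the medians of the arms were close, but the 2-fold differences were not split alike. The 58 other 3p miRNAs detected on both arrays had a median log2 difference of 0.21, with 12 at least 2-fold higher in hypoxia and 1 at least 2-fold lower. The 88 other 5p miRNAs had a median of 0.28, with 14 higher and 9 lower.

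**Figure D3:**
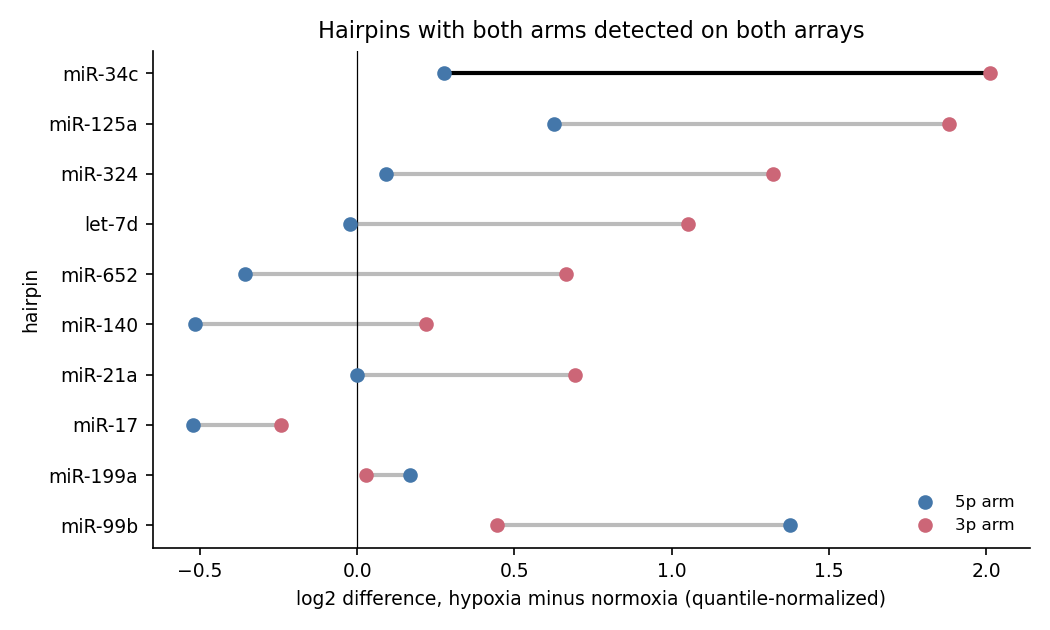
Log2 difference between the arrays, hypoxia minus normoxia, after quantile normalization, of the 5p arm (blue) and the 3p arm (red) of each of the 10 hairpins with both arms detected on both arrays. The line joining the arms of miR-34c (black) is the longest, and the 3p arm lies to the right of the 5p arm for 8 of the 10.

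**Figure D4:**
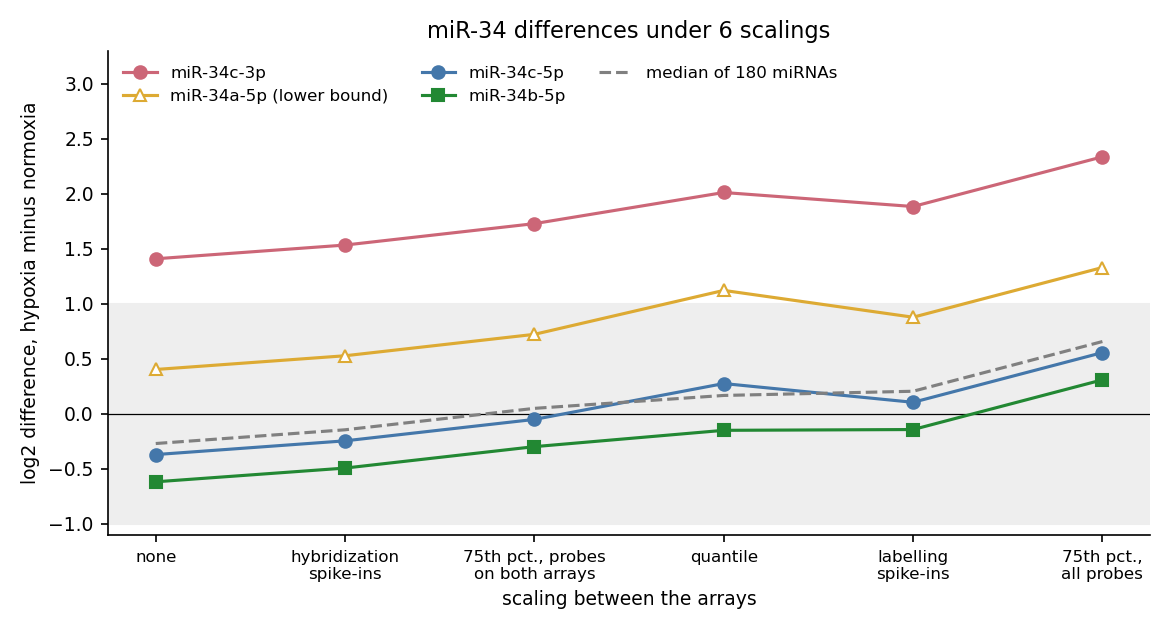
Log2 difference between the arrays, hypoxia minus normoxia, of 4 miR-34 members under 6 scalings of the arrays, with the median of the 180 miRNAs detected on both arrays (dashed) and a grey band for less than 2-fold. Each curve is lowest without normalization and highest when all probes set the 75th percentile, miR-34c-3p stays above the band, the lower bound of miR-34a-5p crosses its edge, and miR-34b-5p and miR-34c-5p cross 0.

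For each measured member, the miRNAs with the most similar pair of signals were sought by the distance of their log2 normalized values over the 2 arrays. For miR-34b-5p these were let-7d-5p (distance 0.13), miR-29c-3p (0.14) and miR-342-3p (0.37). miR-7084-5p (0.13), miR-199a-5p (0.16) and miR-183-5p (0.24) lay nearest to miR-34c-5p. Nearest to miR-34c-3p were miR-1839-5p (0.26), miR-378b (0.29) and miR-224-5p (0.30), with log2 differences of 1.71, 2.36 and 1.60. With 2 arrays such likeness says only that brightness and difference were close.

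Relatives of the family outside the listed members were then examined, whether or not they share a seed with a member. miR-449a-5p and miR-449c-5p, made from hairpins on chromosome 13 and best known from ciliated cells, carry the same seed as miR-34a-5p and are shown to make that plain.
miR-449a-5p: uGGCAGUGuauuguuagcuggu
miR-449c-5p: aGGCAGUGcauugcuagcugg
Neither was detected. The RefSeq table holds no further mature miRNA with either seed, but it has no mature entry for miR-34c-5p, so this search may be incomplete. All 6 related forms looked for, both arms of miR-449a and miR-449c, miR-449b and miR-34a-3p, were detected on neither array, and the mean signals of their brighter probes lay between −1.58 and 1.23.

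Other miRNAs tied to p53 were described for comparison. Of 10 miRNAs that p53 is known to induce or to help process, 9 were on the array under the name used and 5 were detected on both arrays, against 9.57% of all miRNAs. Of these, 0 were at least 2-fold apart, against 28.3% of the 180, so that with 5 miRNAs a count of 0 says little. When all probes set a common 75th percentile, miR-192-5p, miR-107-3p and miR-143-3p passed 2-fold upward, at 1.28, 1.23 and 1.02. miR-192-5p, an arrest-promoting target of p53, differed by 0.80 ± 0.079 (SE over spots) and miR-107-3p by 0.65 ± 0.044. miR-143-3p, miR-15a-5p and miR-16-5p, from precursors that p53 induces or helps to process, differed by 0.59 ± 0.082, 0.10 ± 0.024 and 0.015 ± 0.045. The sign of the last pair turned with the scaling, to −0.24 and −0.35 without normalization. The median of the 5 was 0.59, against 0.17 over all 180. miR-194-5p, miR-215-5p, miR-200c-3p and miR-145a-5p were detected on neither array.

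Among 4 miRNAs known to target p53 mRNA, 3 were detected on both arrays and 0 were at least 2-fold apart after quantile normalization, against 28.3% of the 180. miR-30d-5p was the lowest at −0.93 ± 0.045 (log2, SE over spots), the brighter of its probes averaging 363 ± 36.9 over 14 spots in normoxia and 149 ± 23.8 over 15 in hypoxia (SD). Its difference passed 2-fold without normalization, at −1.28, and with the hybridization spike-ins, at −1.16. miR-125b-5p differed by −0.32 ± 0.060, and by values from −0.88 to 0.044 over the 6 scalings. miR-25-3p differed by 0.16 ± 0.085, with a range from −0.16 to 0.77. miR-504-5p was detected on neither array.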

How the data were processed

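Exosomal RNA of normoxic and hypoxic mouse BMSCs was labelled with Cy3 and hybridised to 1 array per condition. Images were read by the authors in Feature Extraction 11.5.1.1, per the file headers, and the deposited intensity values are background-subtracted processed signals with no normalization between arrays; the flags per spot come from the same software. The labels and the study's methods describe the labelling step differently, and which was used is not known here. The array design names mm9, whereas the printed coordinates are those of the RefSeq sequence table. Of the miRNA spots, 2.96% in normoxia and 3.45% in hypoxia carried at least 1 of 4 outlier flags and were dropped, the rest were averaged per probe, and probe means were quantile-normalized between arrays, since the study names that method. The log2 difference is the mean over probes detected on both arrays. A miRNA detected on 1 array only has a bound, from its brightest detected probe, compared on the dim array with the lowest detected signal or its own, whichever is higher. The functions were tested on data simulated from the normoxia array alone, with known differences put on bright miRNAs only. That test did not cover bounds, or differences of members as dim as miR-34a-5p and miR-34c-3p. Alternatives changed the scaling, the summary of spots and probes, the filter and the signal (normexp on median pixel signals with offset 50, limma 3.58.1 in R 4.3.3). The deposited value table equals the processed signal (largest difference 0). All 5 members and every related miRNA were named by rule; members and lists were chosen with earlier results of these data known. Python 3.11.15 was used. The number of arrays limits the precision.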

Additional observations from a re-analysis of the deposited data

How the results depend on the processing

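With 1 array per condition, a change between settings says nothing about the spread between cultures. No paired analysis was possible because there is a single array for either condition and nothing was tested, and there was no replicate to leave out. The value table equals the scanner signal and says nothing about stability. The counts of detected members stayed within 3 to 4 in normoxia and 3 to 5 in hypoxia, and none of the values given changed sign while 2-fold apart. The arm gap and the scalings of the related miRNAs were added after seeing the data.

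The count of members at least 2-fold apart, 2 with quantile normalization, was 1 with scaling to the 75th percentile of the commonly detected probes, with either spike-in scaling, without normalization, with the median of all spots, with every spot required to be well above background (where miR-34a-5p has no value) and without a filter, and 0 with normexp. It was 3 with the software's summed signal, where miR-34b-3p had a bound of 2.98. The 75th percentile of those probes put miR-34a-5p at 0.72, miR-34c-5p at −0.050 and miR-34c-3p at 1.73. That of all probes put miR-34b-5p at 0.31, miR-34c-5p at 0.56 and miR-34c-3p at 2.34. Without normalization miR-34a-5p was at 0.40, miR-34b-5p at −0.62, miR-34c-5p at −0.37 and miR-34c-3p at 1.41. With the hybridization spike-ins they were at 0.53, −0.49, −0.24 and 1.53. The software's summed signal gave 2.09 for miR-34a-5p, 0.12 for miR-34b-5p, −0.077 for miR-34c-5p and an arm gap of 2.31. Without a filter, where dim probes sit at the lowest detected signal by construction, miR-34c-3p was at 1.50 and the gap at 1.22. Normexp on median pixel signals, which changes the signal and the correction at once, gave 0.21 for miR-34a-5p, 0.90 for miR-34c-3p and a gap of 0.80. The cause of the other moves was not tested.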
